A study of Mus musculus with 12 samples.

Results

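The expression of 10 immediate early genes was followed through 12 RNA-seq libraries of sorted Neuro-2a cells in which Rbmx or Rbmxl1 had been knocked down. The genes, listed by name, were Fos, Fosb, Jun, Junb, Atf3, Egr1, Ier2, Ier3, Dusp1 and Btg2. Each symbol matched 1 Ensembl identifier among the 55401 counted in every library. All 10 passed the filter on low counts, as did 17569 identifiers in all.

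Immediate early genes are transcribed within minutes of a stimulus such as serum, growth factors, depolarisation or stress, because the factors that switch them on are already present in the cell. Serum response factor with its partners, and CREB at cyclic AMP response elements (CREs), receive the signal from ERK, p38 and related kinases. Most of the products are transcription factors or feedback inhibitors, and the RNAs are short-lived. Enzymatic dissociation and cell sorting can themselves induce these genes.

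Neuro-2a is a mouse neuroblastoma line. In every group the cells received 1 µg of the GFP plasmid pCAGGs-linkB-IRES-GFP together with 3 µg in total of pCAG-miR30 plasmids, which express artificial microRNAs. The miScramble group received a scramble plasmid, the miRbmx group a pool of 3 plasmids against Rbmx and the miRbmxl1 group a pool of 2 plasmids against Rbmxl1. After 48 hours the cells of all groups were detached with trypsin, kept on ice, sorted for GFP and frozen. Untransfected or unsorted cells were not analysed here, so no group gives the level of these genes before handling. Each group holds 4 libraries, numbered as biological replicates 1 to 4. What the number stands for is not given, so p-values measure the spread between these libraries, which may be partly technical.

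Each library held 43.1 to 52.2 M reads assigned to genes. Levels are given as counts-per-million values (CPM) after scaling by the trimmed mean of M-values. Changes are log2 fold changes ± SE from an edgeR quasi-likelihood fit to all genes with the replicate number as a block. Calls were made at an adjusted p under 0.05 (Benjamini-Hochberg, over the 17569 genes). Rbmx was at 22.2 to 32.6 CPM in miRbmx and at 57.6 to 73.3 CPM in miScramble. Rbmxl1 was at 12.3 to 16.7 CPM in miRbmxl1 and at 31.3 to 36.7 CPM in miScramble. In the other knockdown, Rbmx was at 81.9 to 90.0 CPM in miRbmxl1, above every miScramble library. Rbmxl1 was at 34.2 to 38.3 CPM in miRbmx, which overlapped miScramble. Of 16 sympathetic neuroblast markers, 14 were at 1 CPM or more in all 12 libraries. The summed level of 16 markers of other cell types was 23.1 to 27.8 CPM in miScramble, 21.1 to 31.0 CPM in miRbmx and 22.4 to 29.0 CPM in miRbmxl1. Of those 16 markers, 11 were under 1 CPM in all 12 libraries, and Cd3e, Col3a1, Epcam, Krt18 and Aqp4 had no count in any. In every group the libraries numbered 1 and 2 stood apart from those numbered 3 and 4. These are called replicate sets below.

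Btg2, an antiproliferative gene of the BTG/TOB family that p53 also induces, was the only one of the 10 genes called in either knockdown. It was 1.42-fold higher in miRbmx and 1.5-fold higher in miRbmxl1 than in miScramble, in 4 of 4 same-numbered pairs each time. Neither call was made without the replicate block. With the block, 8.35% of all genes tested were called in miRbmx and 4.46% in miRbmxl1. Ier3 and Fosb were higher and Atf3 lower in miRbmxl1 with 95% intervals that left out 0, but none of them was called. Fos, Ier2 and Atf3 were instead arranged by replicate number: in the 6 libraries numbered 3 or 4 they lay above the 6 libraries numbered 1 or 2. These sets of libraries were apart, in either direction, for 20.0% of all genes tested. Fos varied up to 3.97-fold and Egr1 up to 3.33-fold between libraries of 1 group.

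To show which elements lie around the starts of these genes, the RefSeq promoter windows of GRCm38.p6 (250 bases before to 50 after the start) were searched on both strands for 7 motifs. Of the 10 genes, 8 had a window. Egr1 and Ier2 had no entry. The CRE core TGACG was found in 6 of these 8 windows, those of Fos, Fosb, Junb, Atf3, Dusp1 and Btg2, and in 20.8% of all 32851 windows. The full CRE TGACGTCA, which contains the core on both strands, was found in Btg2 and Dusp1 and in 1.79% of all windows. The CArG box, the binding sequence of serum response factor, was found in 0 of the 8 windows and in 1.63% of all, the AP-1 site TGAGTCA in 0 and 5.2%, and the ETS core CCGGAA in 0 and 14.9%. The TATA box TATAAA was found in Fos and Junb and in 13.6% of all windows, and CCAAT in 5 of the 8 and in 37.4%. The match of Junb to TATAAA and that of Atf3 to CCAAT lay after the start. A match describes the letters in the window and is not a measured binding site, and a missing match says only that those letters are not in it.

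The bases before the start are printed for Btg2, the called gene, for Dusp1, the other gene with a full CRE, and for Fos and Junb, 2 AP-1 genes with the core. Each sequence is read 5′ to 3′ on the strand of its gene, with the CRE core or full CRE in capitals. Each sequence ends at the RefSeq start, except that of Dusp1, which ends where a GENCODE exon of the gene begins, so that its last 47 bases before the RefSeq start are not printed. Btg2 is chr1:134079156-134079405 on the minus strand, Dusp1 is chr17:26508520-26508722 on the minus strand, Fos is chr12:85473640-85473889 on the plus strand and Junb is chr8:84978749-84978998 on the minus strand.
Btg2: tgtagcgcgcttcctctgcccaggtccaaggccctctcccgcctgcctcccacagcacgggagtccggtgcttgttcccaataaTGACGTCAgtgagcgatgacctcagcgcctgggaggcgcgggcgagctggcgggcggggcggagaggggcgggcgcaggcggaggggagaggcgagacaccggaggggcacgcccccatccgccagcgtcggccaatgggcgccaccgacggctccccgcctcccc
Dusp1: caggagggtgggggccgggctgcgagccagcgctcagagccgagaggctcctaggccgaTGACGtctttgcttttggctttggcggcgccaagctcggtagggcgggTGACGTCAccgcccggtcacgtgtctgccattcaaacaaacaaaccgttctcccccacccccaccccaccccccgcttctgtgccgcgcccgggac
Fos: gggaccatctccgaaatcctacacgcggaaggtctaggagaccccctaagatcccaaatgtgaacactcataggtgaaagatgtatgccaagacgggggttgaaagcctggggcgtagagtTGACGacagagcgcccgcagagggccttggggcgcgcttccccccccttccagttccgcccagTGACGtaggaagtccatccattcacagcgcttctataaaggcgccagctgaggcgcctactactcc
Junb: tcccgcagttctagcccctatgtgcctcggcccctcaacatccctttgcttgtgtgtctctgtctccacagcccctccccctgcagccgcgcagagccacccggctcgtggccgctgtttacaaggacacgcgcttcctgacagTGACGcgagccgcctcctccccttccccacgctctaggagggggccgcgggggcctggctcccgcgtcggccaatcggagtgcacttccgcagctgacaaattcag

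The full CRE of Btg2 began 166 bases before the RefSeq start and that of Dusp1 143 bases before it. Fos held the core at 129 and at 66 bases before the start, and a TATA box at 33 bases before it.

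To place the genes by level, CPM was divided by exonic length in GENCODE M21 (kb), which allows levels of different genes to be compared. In miScramble, Ier2, which encodes a short nuclear protein, had the highest mean level at 32.1 CPM per kb, above 91.2% of the 17540 tested genes with a length. Junb (18.6 CPM per kb), Jun (18.3), Egr1 (17.2), Ier3 (13.6) and Atf3 (13.0) followed, and the ranges over 4 libraries of each neighbouring pair in this order overlapped. Dusp1 (6.78 CPM per kb) and Btg2 (3.18) were lower, and neither overlapped the gene above it. Fos stood at 1.90 CPM per kb, with a range that overlapped that of Btg2. Fosb was the lowest at 0.240 CPM per kb, above 10.8% of tested genes, and did not overlap Fos. The median of all tested genes was 3.79 CPM per kb, so 7 of the 10 lay above it.

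All 10 genes are protein-coding, and most are compact. The gene span was 1.24 kb for Ier3, 1.52 kb for Ier2, 3.19 kb for Jun, 3.38 kb for Fos, 3.95 kb for Btg2, 4.24 kb for Junb, 5.16 kb for Egr1 and 7.36 kb for Fosb, against a median of 14.2 kb over tested genes. Atf3 at 47.7 kb and Dusp1 at 56.5 kb were longer by GENCODE span. The RefSeq starts of both lie inside that span, so transcripts from those starts cover only part of it. Jun and Ier2 have 1 exon block each, and the median of tested genes is 7. On GRCm38, Btg2 (ENSMUSG00000020423) lies at chr1:134075170-134079120 and Atf3 (ENSMUSG00000026628) at chr1:191170296-191218039. Jun (ENSMUSG00000052684) lies at chr4:95049034-95052222, Fosb (ENSMUSG00000003545) at chr7:19302696-19310051, and Fos (ENSMUSG00000021250) at chr12:85473890-85477273. Junb (ENSMUSG00000052837) lies at chr8:84974484-84978718 and Ier2 (ENSMUSG00000053560) at chr8:84661331-84662852. Ier3 (ENSMUSG00000003541) lies at chr17:35821684-35822923 and Dusp1 (ENSMUSG00000024190) at chr17:26505590-26562128. The identifier of Egr1 is ENSMUSG00000038418. Exons of Jun overlap those of Junos on the opposite strand, exons of Junb those of Prdx2, and exons of Dusp1 those of Ergic1. The strand setting of the counting is not stated in the sources used here, so the counts of these 3 genes are less certain.

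**Figure D1:**
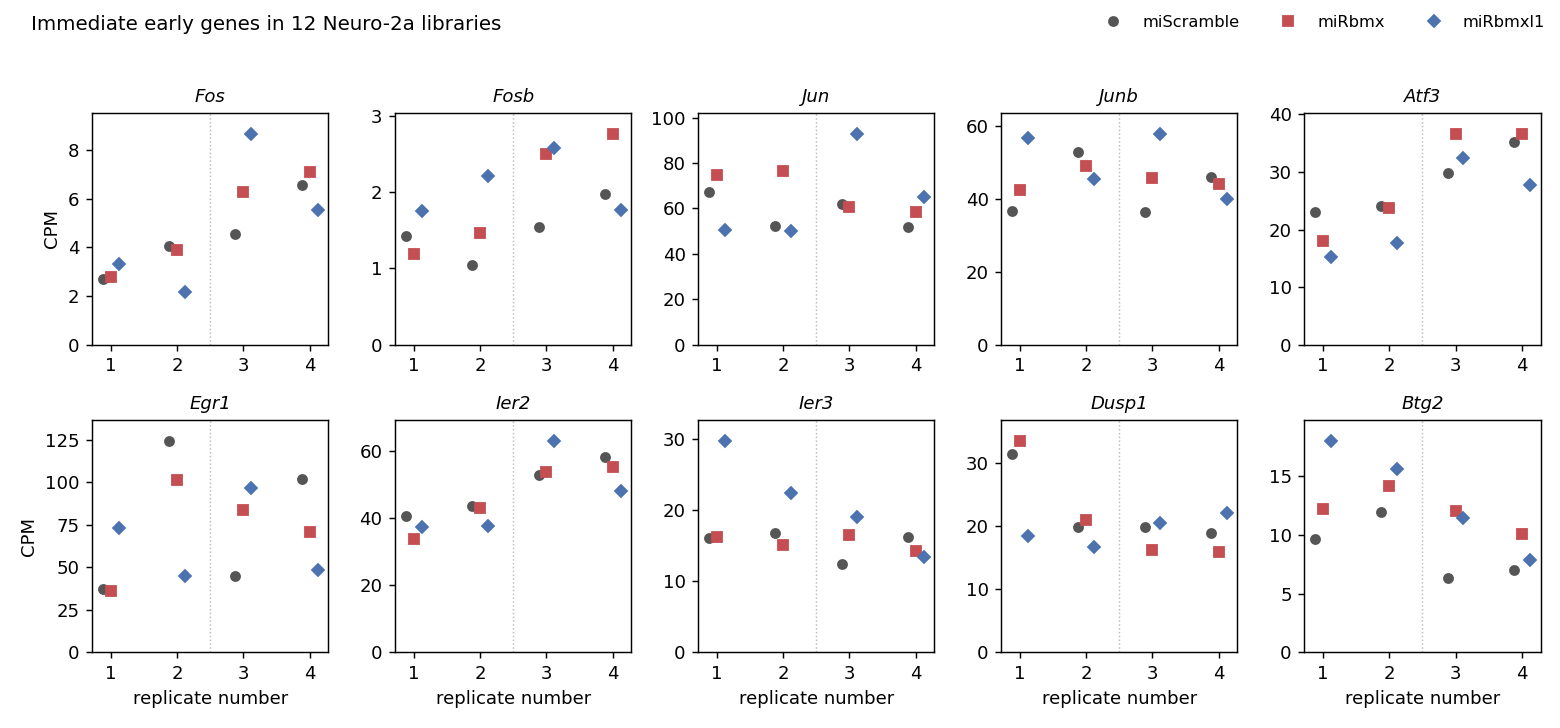
Level of each immediate early gene in the 12 libraries (counts-per-million values, CPM) against replicate number, with 1 colour per group. Fos, Ier2 and Atf3 lie higher at replicate numbers 3 and 4 in every group, and Btg2 lies higher in both knockdowns than in miScramble at each of the 4 numbers.

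Btg2 in miScramble was at 9.70, 11.96, 6.29 and 6.98 CPM in replicates 1 to 4 (8.73 ± 2.61, SD, n = 4). In miRbmx it was at 12.2, 14.2, 12.1 and 10.1 CPM (12.1 ± 1.70, SD, n = 4). In miRbmxl1 it was at 18.0, 15.7, 11.4 and 7.84 CPM (13.2 ± 4.51, SD, n = 4). Every knockdown library lay above the miScramble library of the same number. The groups overlapped, since miScramble replicate 2 lay above miRbmx replicate 4 and above 2 of the miRbmxl1 libraries. The same-number log2 ratios were 0.33, 0.25, 0.94 and 0.53 in miRbmx and 0.89, 0.39, 0.86 and 0.17 in miRbmxl1.

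In miRbmx the log2 fold change of Btg2 was 0.51 ± 0.14 (95% interval 0.22 to 0.80, edgeR adjusted p = 0.0312), and without the replicate block it was 0.48 ± 0.25 (adjusted p = 0.524). In miRbmxl1 it was 0.59 ± 0.14 (0.30 to 0.87, adjusted p = 0.0269), and without the block 0.60 ± 0.25 (adjusted p = 0.542). Both changes are measured against the same 4 miScramble libraries, so they are not independent of each other. Fitted to replicates 1 and 2 alone, the change was 0.30 ± 0.14 in miRbmx (adjusted p = 0.298) and 0.65 ± 0.14 in miRbmxl1 (adjusted p = 0.115). Fitted to replicates 3 and 4 alone, it was 0.72 ± 0.15 (adjusted p = 0.00546) and 0.51 ± 0.15 (adjusted p = 0.0551). The direction was therefore the same in both sets, and whether the sets differ was not tested. Over 16 fits that each left out 1 library or 1 replicate number, Btg2 was called in 8 in miRbmx and in 10 in miRbmxl1. In miRbmx the call was lost without replicate 3 (adjusted p = 0.171) or 4 (0.0706) of all groups, without miScramble replicate 1 (0.0904), 3 (0.141) or 4 (0.0504), and without miRbmx replicate 2 (0.0514), 3 (0.118) or 4 (0.0967). In miRbmxl1 it was lost without replicate 1 (0.107) or 3 (0.112) of all groups, without miScramble replicate 1 (0.0768) or 3 (0.115), and without miRbmxl1 replicate 1 (0.107) or 3 (0.0680).

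The count of 1 called gene in 10 stands beside a background over all genes. With the block 8.35% of genes were called in miRbmx, 4.16% higher and 4.19% lower. In miRbmxl1 4.46% were called, 2.25% higher and 2.20% lower. Without the block 0.00569% of genes were called in each comparison, which is 1 gene each and none of the 10, and at an unadjusted p under 0.05 that fit passed 0 of the 10 in miRbmx, beside 1919 of the 17569 genes, and 2 in miRbmxl1, beside 1487. The median log2 fold change of the 10 genes was 0.05 in miRbmx and 0.10 in miRbmxl1, beside 0.01 over all genes in miRbmxl1 and a value nearer to 0 in miRbmx. At an unadjusted p under 0.05, 1 of the 10 passed in miRbmx, beside 4366 of the 17569 genes, and 4 in miRbmxl1, beside 3479. For none of the 10 were the 4 libraries of a knockdown and of miScramble apart, as they were for 8.07% of all genes in miRbmx and 5.67% in miRbmxl1. These are bulk samples, in which fewer cells of a type and less RNA per cell cannot be told apart.

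**Figure D2:**
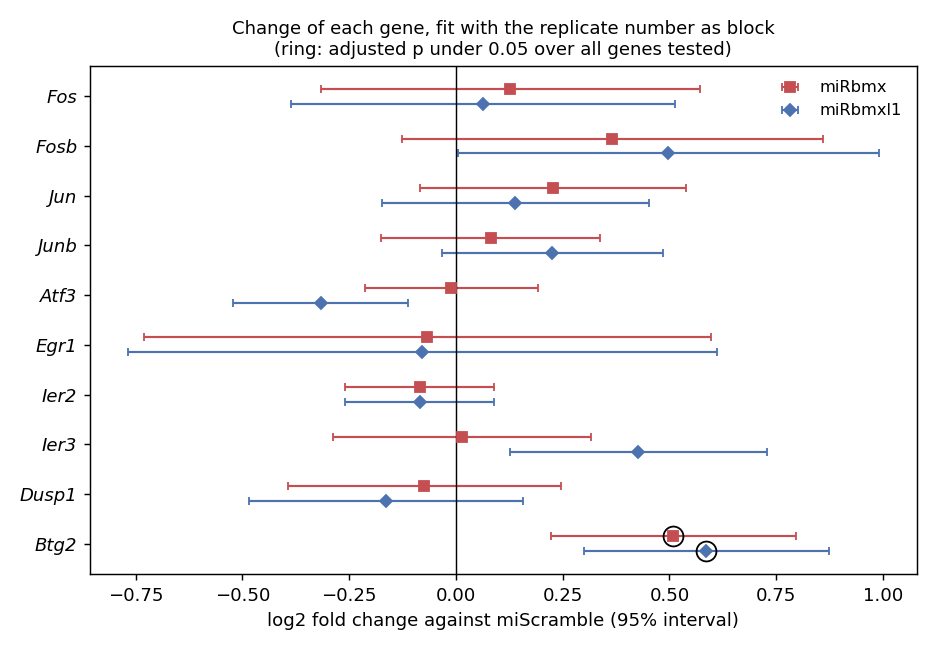
Log2 fold change of each immediate early gene in miRbmx and miRbmxl1 against miScramble, from the fit with the replicate block. Lines are 95% intervals and a ring marks an adjusted p under 0.05. Btg2 is ringed at 0.51 in miRbmx and at 0.59 in miRbmxl1, and the interval of Egr1 in miRbmx spans -0.73 to 0.60.

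Ier3, a stress-inducible gene whose product modulates ERK signalling and cell survival, was at 16.0, 16.8, 12.4 and 16.2 CPM in miScramble (15.3 ± 1.99, SD, n = 4) and at 16.2, 15.1, 16.5 and 14.2 CPM in miRbmx (15.5 ± 1.05, SD, n = 4). In miRbmxl1 it was at 29.6, 22.4, 19.1 and 13.4 CPM (21.1 ± 6.78, SD, n = 4). Replicates 1 to 3 of miRbmxl1 were above every library of the other groups and replicate 4 was below all but 1 of them. The log2 fold change was 0.43 ± 0.14 in miRbmxl1 (95% interval 0.13 to 0.73, adjusted p = 0.0990) and 0.01 ± 0.14 in miRbmx (adjusted p = 0.961). Without miRbmxl1 replicate 4 the change in miRbmxl1 passed the threshold (adjusted p = 0.0268), as it did without replicate 4 of all groups (0.0377) and in DESeq2 (adjusted p = 0.0341). Replicates 1 and 2 alone gave 0.67 ± 0.12 (adjusted p = 0.0737), and replicates 3 and 4 alone gave 0.16 ± 0.15.

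Atf3, a stress-induced bZIP transcription factor of the ATF/CREB family, was at 23.1, 24.2, 29.9 and 35.2 CPM in miScramble (28.1 ± 5.61, SD, n = 4). It was at 18.0, 23.7, 36.6 and 36.5 CPM in miRbmx (28.7 ± 9.35, SD, n = 4) and at 15.3, 17.7, 32.4 and 27.7 CPM in miRbmxl1 (23.3 ± 8.12, SD, n = 4). The groups overlapped throughout, while within each group replicates 3 and 4 lay above replicates 1 and 2. In miRbmxl1 the log2 fold change was -0.32 ± 0.10 (95% interval -0.52 to -0.11, adjusted p = 0.0732), with 1 of 4 same-numbered pairs higher, and in miRbmx it was -0.01 ± 0.10 (adjusted p = 0.96). In miRbmxl1 the value passed the threshold in DESeq2 (adjusted p = 0.0217) and without replicate 3 of all groups (adjusted p = 0.0309), of miScramble (0.0378) or of miRbmxl1 (0.0462). Replicates 1 and 2 alone gave -0.51 ± 0.11 (adjusted p = 0.118), and replicates 3 and 4 alone gave -0.12 ± 0.10.

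The 4 AP-1 subunits gave no call in any comparison. Fos and Fosb form heterodimers with the Jun proteins, and the dimers bind AP-1 sites. Fos was at 2.71, 4.05, 4.57 and 6.55 CPM in miScramble (4.47 ± 1.59, SD, n = 4). It was at 2.78, 3.89, 6.29 and 7.08 CPM in miRbmx (5.01 ± 2.01, SD, n = 4) and at 3.31, 2.18, 8.67 and 5.52 CPM in miRbmxl1 (4.92 ± 2.86, SD, n = 4). Replicate 3 of miRbmxl1 was the highest of the 12 and replicate 2 of the same group the lowest, 3.97-fold apart. The groups overlapped. The log2 fold change was 0.13 ± 0.21 in miRbmx (adjusted p = 0.755) and 0.06 ± 0.21 in miRbmxl1 (adjusted p = 0.910).

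Fosb was at 1.43, 1.05, 1.54 and 1.97 CPM in miScramble (1.496 ± 0.380, SD, n = 4). It was at 1.18, 1.47, 2.49 and 2.76 CPM in miRbmx (1.98 ± 0.769, SD, n = 4) and at 1.75, 2.21, 2.57 and 1.77 CPM in miRbmxl1 (2.08 ± 0.394, SD, n = 4). The means of both knockdowns were above that of miScramble and 3 of 4 pairs were higher in each, but the groups overlapped. Fosb had a log2 fold change of 0.37 ± 0.23 in miRbmx (adjusted p = 0.350) and 0.50 ± 0.23 in miRbmxl1 (95% interval 0.0041 to 0.99, adjusted p = 0.249). Replicates 1 and 2 alone gave 0.10 ± 0.32 in miRbmx and 0.68 ± 0.32 in miRbmxl1, and replicates 3 and 4 alone gave 0.57 ± 0.26 and 0.30 ± 0.26.

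Jun, the AP-1 subunit that JNK activates, was at 67.1, 52.1, 61.9 and 51.8 CPM in miScramble (58.2 ± 7.52, SD, n = 4) and at 74.7, 76.6, 60.8 and 58.4 CPM in miRbmx (67.6 ± 9.34, SD, n = 4). In miRbmxl1 it was at 50.6, 50.2, 92.8 and 65.2 CPM (64.7 ± 20.0, SD, n = 4), with replicate 3 above all other libraries and replicates 1 and 2 below all others. The log2 fold change was 0.23 ± 0.15 in miRbmx (adjusted p = 0.360) and 0.14 ± 0.15 in miRbmxl1 (adjusted p = 0.654). In miRbmxl1 the first replicate set alone gave -0.22 ± 0.11 and the other set 0.45 ± 0.09 (adjusted p = 0.00507), so the pooled value joins opposite directions. The difference between the sets was not tested.

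Junb, an AP-1 subunit that can oppose Jun, was at 36.5, 52.8, 36.3 and 46.0 CPM in miScramble (42.9 ± 7.98, SD, n = 4). It was at 42.5, 49.0, 45.6 and 44.1 CPM in miRbmx (45.3 ± 2.75, SD, n = 4) and at 56.7, 45.4, 57.7 and 40.0 CPM in miRbmxl1 (50.0 ± 8.68, SD, n = 4). The groups overlapped, and 2 of 4 pairs were higher in each knockdown. Junb had a log2 fold change of 0.08 ± 0.12 in miRbmx (adjusted p = 0.729) and 0.23 ± 0.12 in miRbmxl1 (adjusted p = 0.325).

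Egr1, a zinc finger transcription factor induced through serum response factor, was at 37.2, 124, 44.6 and 102 CPM in miScramble (77.0 ± 42.7, SD, n = 4). It was at 35.8, 102, 83.6 and 70.8 CPM in miRbmx (73.0 ± 27.8, SD, n = 4) and at 73.3, 44.7, 96.6 and 48.5 CPM in miRbmxl1 (65.8 ± 24.1, SD, n = 4). The highest library was 3.33-fold above the lowest in miScramble, 2.84-fold in miRbmx and 2.16-fold in miRbmxl1, and replicate 2 was the highest in miScramble and miRbmx but the lowest in miRbmxl1. The log2 fold change was -0.07 ± 0.31 in miRbmx (95% interval -0.73 to 0.60, adjusted p = 0.918) and -0.08 ± 0.33 in miRbmxl1 (adjusted p = 0.929). Its biological coefficient of variation with the block was 0.301, against a median of 0.101 over all genes, so in miRbmx a change of the size seen for Btg2 lies inside the interval of Egr1.

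Ier2 was at 40.7, 43.8, 52.8 and 58.3 CPM in miScramble (48.9 ± 8.08, SD, n = 4). It was at 33.7, 43.1, 53.7 and 55.4 CPM in miRbmx (46.5 ± 10.1, SD, n = 4) and at 37.5, 37.7, 63.0 and 48.2 CPM in miRbmxl1 (46.6 ± 12.01, SD, n = 4). The groups overlapped while the replicate sets did not. With the block Ier2 had the narrowest interval of the 10 in miRbmx, with a log2 fold change of -0.08 ± 0.08 (95% interval -0.26 to 0.09, adjusted p = 0.569), and the change in miRbmxl1 was also -0.08 ± 0.08 (adjusted p = 0.622).

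Dusp1, a phosphatase that inactivates p38, JNK and ERK in feedback, was at 31.3, 19.8, 19.8 and 18.9 CPM in miScramble (22.5 ± 5.92, SD, n = 4). It was at 33.4, 20.9, 16.2 and 15.9 CPM in miRbmx (21.6 ± 8.18, SD, n = 4) and at 18.5, 16.6, 20.4 and 22.1 CPM in miRbmxl1 (19.4 ± 2.37, SD, n = 4). Replicate 1 stood above the other libraries of its group in miScramble and miRbmx but not in miRbmxl1. Dusp1 had a log2 fold change of -0.07 ± 0.15 in miRbmx (adjusted p = 0.806) and -0.16 ± 0.15 in miRbmxl1 (adjusted p = 0.597). In miRbmxl1 replicates 1 and 2 alone gave -0.49 ± 0.14, and replicates 3 and 4 alone gave 0.13 ± 0.10.

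**Figure D3:**
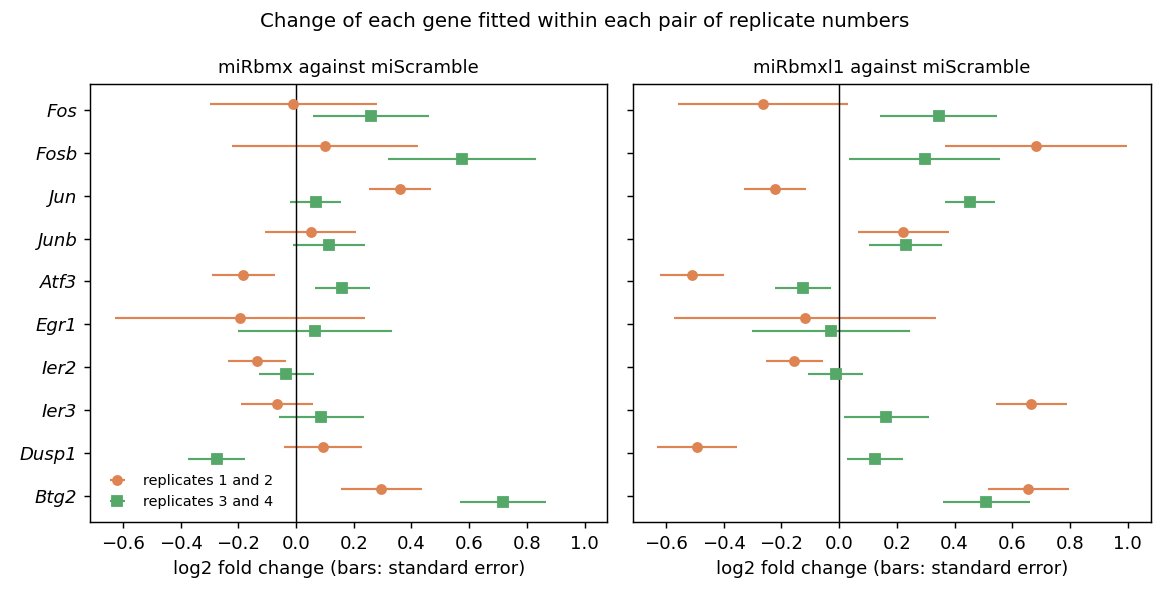
Log2 fold change of each immediate early gene against miScramble within replicates 1 and 2 and within replicates 3 and 4, with lines of 1 SE. Btg2 is above 0 in both sets and both knockdowns (0.30 and 0.72 in miRbmx, 0.65 and 0.51 in miRbmxl1), while Jun in miRbmxl1 lies at -0.22 in the first set and 0.45 in the second.

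The knockdowns were also compared with each other. None of the 10 genes was called with or without the block, where 0.0114% of all genes were called in either fit, and for none were the 4 libraries of each group apart, as they were for 1.12% of all genes. Atf3 was higher in miRbmx than in miRbmxl1 in 4 of 4 pairs, with a log2 difference of 0.31 ± 0.10 (adjusted p = 0.859), and for Ier3 the difference was -0.41 ± 0.14, with 1 of 4 pairs higher (adjusted p = 0.859). Both intervals left out 0, and 2 of the 10 genes passed an unadjusted p of 0.05, beside 1002 of the 17569. For Btg2 the difference was -0.08 ± 0.13 (95% interval -0.36 to 0.21, adjusted p = 0.956). The pools differ in their target and in the number of plasmids, and these cannot be told apart here.

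Replicate number accounted for more of the variation of several of these genes than the group did. The split of libraries 1 and 2 from 3 and 4 was seen in the data, so the following levels are a description with no test. Fos was at 2.18 to 4.05 CPM in the 6 libraries numbered 1 or 2 and at 4.57 to 8.67 CPM in the 6 numbered 3 or 4, a ratio of means of 2.04. Ier2 was at 33.7 to 43.8 CPM and at 48.2 to 63.0 CPM, a ratio of 1.40. Atf3 was at 15.3 to 24.2 CPM and at 27.7 to 36.6 CPM, a ratio of 1.63. The other 7 genes overlapped between the sets, with ratios of 1.44 for Fosb, 1.07 for Egr1, 1.05 for Jun, 0.953 for Junb, 0.806 for Dusp1, 0.790 for Ier3 and 0.669 for Btg2. The sets were apart for 3 of the 10 genes and for 20.0% of all genes tested, and the genes moved in both directions.

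By share of the sum of squares of log2 CPM, replicate number took 83.8% for Ier2, 78.4% for Atf3 and 75.8% for Fos, against a median of 46.4% over all genes. The group took 2.24%, 12.8% and 1.03% for the same genes, against a median of 14.8%. Over the 10 genes the medians were 43.4% for replicate number and 11.9% for the group. The group took more than replicate number for Ier3 (34.4% and 26.7%) and Junb (18.8% and 9.82%). For Btg2 replicate number took 49.5% and the group 34.4%, with 16.1% left over. For Egr1, Jun and Junb most of the variation was left after both, at 72%, 71.4% and 71.4%, against a median of 28.7%. Adding the block lowered the biological coefficient of variation of Atf3 from 0.263 to 0.0964 and that of Ier2 from 0.193 to 0.0843, but that of Egr1 only from 0.386 to 0.301.

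**Figure D4:**
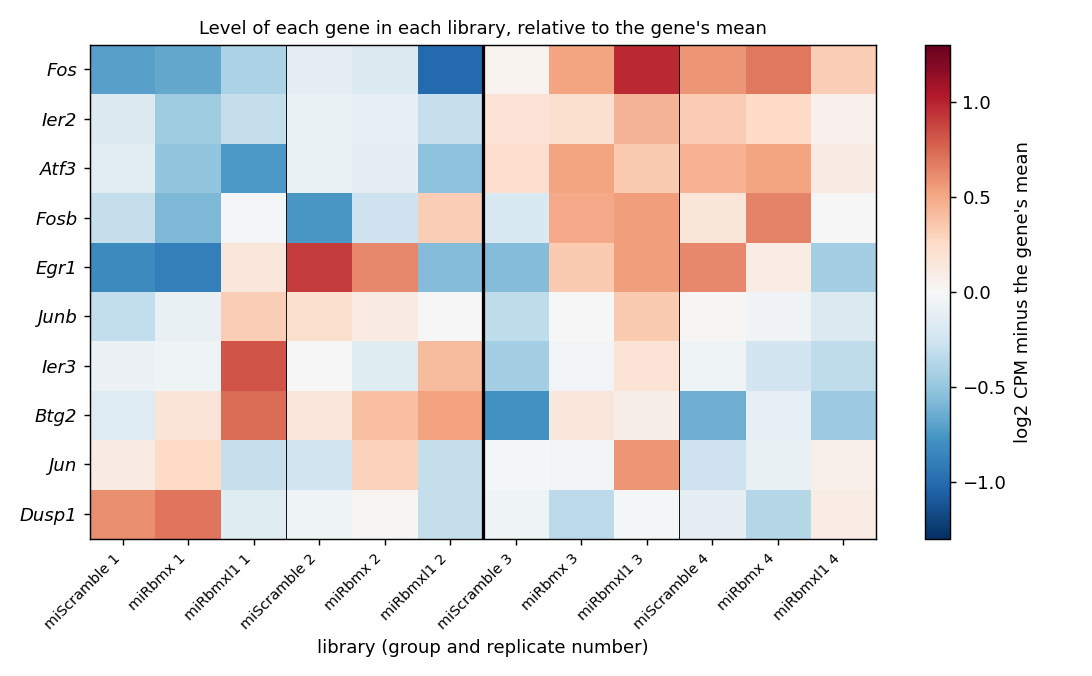
Log2 CPM of each immediate early gene minus its mean over the 12 libraries, with libraries in columns by group and replicate number. Fos, Ier2 and Atf3 are below their mean in most libraries numbered 1 or 2 and above it in most numbered 3 or 4, while Btg2 is low in replicates 3 and 4 of miScramble (6.29 and 6.98 CPM).

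The 10 genes did not vary as 1 block. Pearson correlations of log2 CPM over the 12 libraries, with group means removed, are given as a description, since the libraries share replicate numbers and handling. Ier2 and Atf3 (r = 0.97), Fos and Ier2 (r = 0.95) and Fos and Atf3 (r = 0.92) varied together, as did Junb and Egr1 (r = 0.86) and Ier3 and Btg2 (r = 0.85). Atf3 and Btg2 were opposed (r = -0.69), as were Fosb and Dusp1 (r = -0.63). With the replicate number removed as well, Junb and Egr1 (r = 0.95), Ier3 and Btg2 (r = 0.91), Fos and Egr1 (r = 0.90) and Fos and Junb (r = 0.87) were alike. Dusp1 was then opposed to Ier3 (r = -0.81) and to Btg2 (r = -0.79). Atf3 and Btg2 were no longer opposed (r = 0.41), while Fosb and Dusp1 still were (r = -0.59).

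The mean standardised level of the 10 genes was highest in miRbmxl1 replicate 3, at 1.02 standard deviations, and lowest in miScramble replicate 3, at -0.49. Single genes followed this profile to different degrees, from r = 0.75 for Fos, 0.70 for Junb and 0.70 for Egr1 to 0.17 for Btg2 and -0.39 for Dusp1. Each of these genes is part of the mean it is compared with, so its r is partly built in. Over 13309 other genes with a mean of at least 1 CPM, the 5 with the most similar pattern across the 12 libraries were Atp5mpl (r = 0.90), Mindy3 (0.87), Riok3 (0.87), Elavl2 (0.86) and Gm5801 (0.85), and the median r was 0.02.

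A list of 50 other immediate early and early response genes was read beside them, of which 46 were tested. In miRbmx 3 of the 46 rose and none fell, beside 4.16% higher and 4.19% lower among all genes. In miRbmxl1 4 rose and 1 fell, beside 2.25% higher and 2.20% lower among all genes. The median log2 fold change of the list was 0.05 in both. None was called in edgeR without the replicate block, where 5 in miRbmx and 7 in miRbmxl1 passed an unadjusted p of 0.05, beside 1919 and 1487 of the 17569 genes. None was called between the knockdowns, where 3 passed an unadjusted p of 0.05, beside 1002 genes in all. Ccn1, a secreted matricellular protein, was at 1.61, 2.00, 3.19 and 3.53 CPM in miScramble, at 2.78, 3.28, 5.01 and 4.43 CPM in miRbmx and at 4.52, 3.78, 4.68 and 5.10 CPM in miRbmxl1. All miRbmxl1 libraries lay above all miScramble libraries. Ccn1 rose by 0.60 ± 0.17 in miRbmx (adjusted p = 0.0385) and by 0.86 ± 0.17 in miRbmxl1 (adjusted p = 0.0141). Maff, a small MAF transcription factor, rose by 0.37 ± 0.09 in miRbmx (adjusted p = 0.0215) and by 0.47 ± 0.09 in miRbmxl1 (adjusted p = 0.0112).

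Ier5l, a relative of Ier2, rose in miRbmx by 0.49 ± 0.13 (adjusted p = 0.0337). Tnfaip3, an inhibitor of NF-kappaB signalling, was at 1.99 to 2.37 CPM in miScramble and at 2.76 to 6.16 CPM in miRbmxl1, where it rose by 0.94 ± 0.20 (adjusted p = 0.0172). Dusp4, a nuclear MAP kinase phosphatase, rose in miRbmxl1 by 0.28 ± 0.08 (adjusted p = 0.0487). Klf6, a zinc finger transcription factor, fell in miRbmxl1 by 0.44 on the log2 scale (SE 0.11, adjusted p = 0.0326). For all 6 genes the 4 same-numbered pairs had 1 direction in each comparison where the gene was called. Leaving out 1 library or replicate number at a time, Ccn1 was called in 4 of 16 fits in miRbmx and 12 of 16 in miRbmxl1, Maff in 10 and 14, Ier5l in 5, Tnfaip3 in 10, Klf6 in 6 and Dusp4 in 1. In miRbmxl1 replicates 1 and 2 alone gave 1.22 for Ccn1, 1.21 for Tnfaip3, -0.60 for Klf6 and 0.45 for Dusp4, and replicates 3 and 4 alone gave 0.53, 0.63, -0.29 and 0.11. In miRbmx Maff was at 0.50 in the first set and 0.23 in the other, Ccn1 at 0.76 and 0.48, and Ier5l at 0.40 and 0.57. Maff in miRbmxl1 was at 0.48 and 0.46. No gene of these reversed between the sets, and the differences between sets were not tested.

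A list of 36 kinases and transcription factors upstream of immediate early genes had 35 tested members. In miRbmx 4 rose and 1 fell, beside the 8.35% of all genes called in either direction, and in miRbmxl1 2 rose and 1 fell, beside 4.46%. The medians were -0.01 and -0.04. Srf, which encodes serum response factor, was at 40.2, 43.2, 56.3 and 54.96 CPM in miScramble (48.7 ± 8.17, SD, n = 4). It was at 48.3, 51.7, 81.6 and 75.7 CPM in miRbmx (64.3 ± 16.8, SD, n = 4) and at 47.8, 53.1, 77.6 and 75.8 CPM in miRbmxl1 (63.6 ± 15.3, SD, n = 4). The groups overlapped, with Srf higher in replicates 3 and 4 of every group, and each knockdown library lay above the miScramble library of its number. Srf rose by 0.38 ± 0.06 in miRbmx (adjusted p = 0.00490, without the block 0.496) and by 0.37 ± 0.06 in miRbmxl1 (adjusted p = 0.00644, without the block 0.640). It was called in 16 of 16 leave-one-out fits in miRbmx and in 15 of 16 in miRbmxl1, where the call was lost without replicate 4 (adjusted p = 0.0586).

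Map2k1, the ERK kinase MEK1, rose by 0.37 ± 0.08 in miRbmx (adjusted p = 0.0154) and by 0.32 ± 0.08 in miRbmxl1 (adjusted p = 0.0409). Hras rose in miRbmx by 0.26 ± 0.06 (adjusted p = 0.0153). Mapkapk2, a kinase downstream of p38, rose in miRbmx by 0.23 ± 0.06 (adjusted p = 0.0402). Mef2a, a MADS-box transcription factor, fell by 0.26 on the log2 scale in miRbmx (SE 0.06, adjusted p = 0.0143) and by 0.27 in miRbmxl1 (SE 0.06, adjusted p = 0.0165), and its exons overlap those of Lysmd4 on the opposite strand. Over the 16 leave-one-out fits, Map2k1 was called in 12 in miRbmx and 5 in miRbmxl1, Mef2a in 12 and 10, Hras in 11 and Mapkapk2 in 3. In replicates 1 and 2 alone and in replicates 3 and 4 alone, the change in miRbmx was 0.32 and 0.13 for Mapkapk2, 0.48 and 0.26 for Map2k1, 0.27 and 0.49 for Srf and -0.20 and -0.31 for Mef2a. In miRbmxl1 Srf was at 0.29 and 0.45 in these sets. No gene of this list was called without the block, where 3 passed an unadjusted p of 0.05 in miRbmx and 2 in miRbmxl1, again beside 1919 and 1487 of the 17569 genes. Beside these values, the 4 AP-1 subunits and Egr1 were not called in either knockdown.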

How the data were processed

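The study measured RNA in 12 libraries of sorted Neuro-2a cells, in 3 groups of 4. The authors deposited raw counts, 1 whole number per Ensembl gene identifier and library. Reads were processed with cutadapt, STAR 2.5.3a, HTSeq 0.6.1p1 and DESeq2 1.16.1 in R 3.3.2 on mm10, per the submitters' processing notes, which give no role or order. The libraries were stranded and depleted of ribosomal RNA, per the labels' protocols. The annotation and strand setting are not given in the sources used here. Of each deposited count file, 52.3% to 57.4% stood in 5 rows that name no gene, and multiply aligned reads, 20.6% to 26.5%, were not assigned to genes. These rows were left out. Names and positions come from GENCODE M21 (55141 identifiers matched, 260 did not).

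Here counts were filtered with filterByExpr (minimum count 10, minimum total 15), scaled by TMM and fitted with edgeR 4.0.16 (R 4.3.3, limma 3.58.1), quasi-likelihood test, over all 12 libraries. The replicate number was a block in the fit, as the rule for these genes sets it, and p-values were adjusted by Benjamini-Hochberg over 17569 genes. The pairing was checked on log2 CPM (prior count 2) centred on group means: r was 0.20 to 0.52 over 12 same-numbered pairs, 0.10 to 0.43 over 12 pairs of the same replicate set and -0.57 to -0.13 over the other 24. The common dispersion was 0.00929 with the block and 0.0362 without it. The alternatives were no replicate block, relative log expression or library totals, DESeq2 1.42.0, no filter, each library or replicate number left out, and each replicate set alone.

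All 10 genes are named. From every other list, called genes were named, up to 4 per list and comparison by absolute log2 fold change, with the 5 genes of most similar pattern. Dusp4 in miRbmxl1 and Mapkapk2 in miRbmx were the fifth of their lists, outside this rule, and were added after their values were seen. The genes and lists were chosen with earlier results of these data known.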

Additional observations from a re-analysis of the deposited data

Results flagged for a closer look

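Dusp1 in miScramble is given because replicate 1, at 31.3 CPM, stood far from the nearest of the other 3 libraries, at 19.8 CPM. Its gap was 0.922 of the range of the group, above Dixon's 95% critical value for 4 samples. The 10 genes were looked at in all 3 groups, and chance passes this limit in about 1 of 20 groups. In miRbmx replicate 1 was also the highest library for Dusp1, at 33.4 CPM, and in miRbmxl1 it was not, at 18.5 CPM.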

How the results depend on the processing

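The replicate block decided every call on these genes. The replicate number is part of the sample titles, which do not say what it stands for. In the values, same-numbered pairs (median r = 0.37) were little more alike than other pairs of the same replicate set (median r = 0.34). Without the block 0 of the 10 genes were called in either knockdown. The same held for the 46 other early genes, the 35 upstream genes and the heat shock, ATF4 and p53 lists. Atf3 in miRbmx reversed without the block, to 0.031. In the remaining settings, the count of the 10 in miRbmx moved from 1 to 0 with library totals (Btg2 0.48, adjusted p = 0.0503), to 2 with no filter and to 0 in replicates 1 and 2, and that in miRbmxl1 from 1 to 3 with DESeq2, to 3 with no filter and to 0 in replicates 1 and 2. Between the knockdowns it moved from 0 to 1 with no filter (Ier3). With no filter the calls added were Jun in miRbmx (adjusted p = 0.0228) and Ier3 (7.03e-04) and Atf3 (0.00815) in miRbmxl1. The other early genes moved from 3 to 6 with DESeq2, 11 with no filter, 0 in replicates 1 and 2 and 9 in replicates 3 and 4 in miRbmx, and from 5 to 10 with no filter and 1 in replicates 1 and 2 in miRbmxl1. The upstream genes moved from 5 to 0 in replicates 1 and 2 in miRbmx, and from 3 to 5 with DESeq2 and 0 in replicates 1 and 2 in miRbmxl1. Heat shock genes moved from 1 to 2 with DESeq2, 4 with no filter, 0 in replicates 1 and 2 and 3 in replicates 3 and 4 in miRbmx, and to 2, 2, 0 and 2 in miRbmxl1. ATF4 genes moved from 3 to 0 in replicates 1 and 2 in miRbmx and from 0 to 2 with no filter in miRbmxl1. The p53 targets moved from 2 to 0 in replicates 1 and 2 and 4 in replicates 3 and 4 in miRbmx, and from 2 to 1 with relative log expression, 0 in replicates 1 and 2 and 1 in replicates 3 and 4 in miRbmxl1. The cause was not tested.

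Some log2 fold changes reversed. Some of these were small in every setting. Others, such as Jun and Dusp1 between the knockdowns, were large and of opposite sign in the replicate sets. In miRbmx, replicates 1 and 2 gave -0.0092 for Fos, -0.064 for Ier3 and 0.094 for Dusp1, replicates 3 and 4 gave 0.066 for Egr1 and 0.16 for Atf3, and library totals gave -0.012 for Ier3. In miRbmxl1, replicates 1 and 2 gave -0.26 for Fos and -0.22 for Jun, and replicates 3 and 4 gave 0.13 for Dusp1. Between the knockdowns, replicates 3 and 4 gave -0.086 for Fos, 0.28 for Fosb, -0.39 for Jun, -0.40 for Dusp1 and 0.21 for Btg2, and replicates 1 and 2 gave -0.076 for Egr1 and 0.020 for Ier2. Library totals gave -0.0032 for Egr1, and relative log expression, DESeq2 and no filter gave 0.0032, 0.0033 and 0.0090 for Ier2. Leaving out 1 library or replicate number gave, in miRbmx, -0.068 to 0.31 for Fos, -0.028 to 0.19 for Junb, -0.37 to 0.23 for Egr1, -0.11 to 0.17 for Ier3, -0.13 to 0.10 for Atf3 and -0.24 to 0.040 for Dusp1. In miRbmxl1 it gave -0.27 to 0.34 for Fos, -0.075 to 0.30 for Jun, -0.50 to 0.35 for Egr1 and -0.34 to 0.043 for Dusp1. Between the knockdowns it gave -0.16 to 0.35 for Fos, -0.38 to 0.050 for Fosb, -0.085 to 0.34 for Jun, -0.34 to 0.43 for Egr1, -0.066 to 0.10 for Ier2, -0.15 to 0.28 for Dusp1 and -0.21 to 0.10 for Btg2. The Btg2 change stayed between 0.37 and 0.62 in miRbmx and between 0.44 and 0.71 in miRbmxl1. Counts called under these fits ranged, in miRbmx and miRbmxl1, from 0 to 1 and 0 to 2 of the 10 genes, 0 to 7 and 0 to 5 of the other early genes, 1 to 6 and 0 to 3 of the upstream genes, 0 to 3 and 0 to 2 of the heat shock genes, 0 to 3 and 0 to 2 of the ATF4 genes and 0 to 3 and 0 to 1 of the p53 targets. Of the recomputed log2 fold changes of the 10 genes, 570 kept their direction and their side of the threshold, 88 reversed, 12 passed the threshold anew and 20 no longer passed it. Depth limits Fosb most, with as few as 45 reads in a library, then Fos with as few as 104.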

Other observations

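Among all genes 8.35% were called in miRbmx, 4.16% higher and 4.19% lower, and 4.46% in miRbmxl1, 2.25% higher and 2.20% lower. Beside these shares, of 9 tested heat shock genes 1 was called in each knockdown, Hsph1, an HSP70 nucleotide exchange factor, which rose by 0.30 ± 0.07 in miRbmx (adjusted p = 0.0168) and by 0.32 ± 0.07 in miRbmxl1 (adjusted p = 0.0193). Hspa1a, Hspa1b and Hspb1 did not pass the filter on low counts. Of 11 tested ATF4 and integrated stress response genes 3 rose in miRbmx, and all 3 make enzymes of amino acid synthesis: Asns by 0.27 (adjusted p = 0.0272), Psat1 by 0.26 (adjusted p = 0.0168) and Phgdh by 0.23 (adjusted p = 0.0314). Over 16 fits that each left out 1 library or replicate number, Hsph1 was called in 11 in miRbmx and 10 in miRbmxl1, Asns in 7, Psat1 in 10 and Phgdh in 5, and the count of ATF4 genes in miRbmx ranged from 0 to 3. Phgdh was at 0.30 in replicates 1 and 2 alone and at 0.16 in replicates 3 and 4 alone, and Hsph1 in miRbmxl1 at 0.41 and 0.24. None of the 11 was called in miRbmxl1, where 6 passed an unadjusted p of 0.05, as did 3479 of 17569 genes in all. The difference between the knockdowns was not called for any of these genes. None of these genes was called without the replicate block, and each called gene moved the same way in 4 of 4 pairs.

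Of 10 tested p53 targets, which Btg2 also is, Ccng1 rose by 0.34 ± 0.09 in miRbmx (adjusted p = 0.0364). Trp53inp1 fell by 0.40 in miRbmx (SE 0.09, adjusted p = 0.0154) and by 0.33 in miRbmxl1 (SE 0.09, adjusted p = 0.0484), and Zmat3 fell by 0.22 in miRbmxl1 (SE 0.06, adjusted p = 0.0392). These calls are few: over the same 16 fits Ccng1 was called in 8, Trp53inp1 in 11 in miRbmx and 2 in miRbmxl1, and Zmat3 in 4, and at most 1 p53 target was called in miRbmxl1 in any of them. Replicates 1 and 2 alone gave 0.17 for Ccng1 and -0.19 for Trp53inp1 in miRbmx and -0.15 for Trp53inp1 in miRbmxl1, and replicates 3 and 4 alone gave 0.50, -0.63 and -0.51.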
